A study of Homo sapiens with 8 samples.

Results

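The collagen genes are the genes that encode the alpha chains of the collagens, the main structural proteins of the extracellular matrix. They were taken as every listed gene whose symbol is COL, a number, A and a number with nothing after, which gave 44 of the 25411 genes listed for each RNA-Seq library. The libraries came from BEAS-2B cells, an immortalised line from human bronchial epithelium, in 4 groups of 2 libraries each. UT cells were untreated, and Ni-E cells were grown in 100 µM NiCl2 for 6 weeks. Ni-W and HCl3 cells had the same exposure to NiCl2, after which the cells were plated without nickel and populations were grown from single colonies. The Ni-W population was picked at random and had been in culture without nickel for over 6 months. For HCl3 the labels give the same treatment as for Ni-W, and they give neither its time without nickel nor how it was related to the Ni-W population. Each washout group is thus 1 population grown from 1 cell, so that its clone and its history of nickel cannot be told apart. The labels also number the experiments of Ni-E and HCl3, and experiment and group cannot be told apart.

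Each collagen is built from 3 alpha chains that wind into a triple helix, and the chains of 1 collagen are often encoded by different genes. Fibril-forming collagens such as types I, III and V make up the fibres of connective tissue, type IV forms the network of basement membranes under epithelia, type VI forms beaded filaments, and type VII anchors the basement membrane to the stroma. Before secretion, prolines and lysines of the chains are hydroxylated by enzymes that need iron and oxoglutarate, and outside the cell lysyl oxidases cross-link the fibres. In the airway the epithelium makes much of its own basement membrane, whereas most fibrillar collagen is made by fibroblasts.

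Promoter sequence from RefSeq (build GRCh38.p14) was matched by symbol for 32 of the 44 genes, and 8 stretches are shown for the genes on which the results turn. They were read on the strand of the gene, except the one between COL4A1 and COL4A2, which was read on the plus strand, and each ends at the base before a transcription start. Capitals mark 3 motifs on either strand: the core of the hypoxia response element (ACGTG or GCGTG), the CCAAT box (CCAAT) and the GC box (GGGCGG). COL4A1 and COL4A2 are transcribed away from each other on chromosome 13 with 126 bases between their starts, and COL4A6 and COL4A5 are arranged in the same way on chromosome X with 379 bases between them. The first 3 stretches are shown because these pairs share their upstream sequence. COL5A1, COL6A2 and COL18A1 are shown because they were raised in both washout groups, and COL9A2 and COL9A1 because they encode chains of the same collagen but only COL9A2 had reads.
between COL4A1 and COL4A2 (chr13:110307158-110307283): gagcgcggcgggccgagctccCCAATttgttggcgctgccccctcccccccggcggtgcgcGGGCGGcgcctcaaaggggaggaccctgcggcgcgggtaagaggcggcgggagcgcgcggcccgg
upstream of COL4A5 (chrX:108439588-108439837, plus strand): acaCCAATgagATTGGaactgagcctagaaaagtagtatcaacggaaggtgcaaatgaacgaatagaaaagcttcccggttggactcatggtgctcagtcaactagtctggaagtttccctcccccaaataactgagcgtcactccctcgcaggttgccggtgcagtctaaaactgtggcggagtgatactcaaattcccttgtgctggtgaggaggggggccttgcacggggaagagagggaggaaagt
upstream of COL4A6 (chrX:108439459-108439708, minus strand): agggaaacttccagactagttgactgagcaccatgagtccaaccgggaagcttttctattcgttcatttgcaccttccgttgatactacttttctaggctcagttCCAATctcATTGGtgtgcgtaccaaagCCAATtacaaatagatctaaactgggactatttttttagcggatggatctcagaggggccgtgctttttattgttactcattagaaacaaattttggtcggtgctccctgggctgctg
upstream of COL5A1 (chr9:134641553-134641802, plus strand): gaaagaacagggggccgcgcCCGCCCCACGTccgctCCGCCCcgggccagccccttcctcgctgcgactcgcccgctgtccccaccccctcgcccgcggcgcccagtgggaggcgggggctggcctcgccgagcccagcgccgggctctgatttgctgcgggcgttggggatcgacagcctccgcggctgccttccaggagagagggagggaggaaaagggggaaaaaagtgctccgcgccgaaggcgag
upstream of COL6A2 (chr21:46097862-46098111, plus strand): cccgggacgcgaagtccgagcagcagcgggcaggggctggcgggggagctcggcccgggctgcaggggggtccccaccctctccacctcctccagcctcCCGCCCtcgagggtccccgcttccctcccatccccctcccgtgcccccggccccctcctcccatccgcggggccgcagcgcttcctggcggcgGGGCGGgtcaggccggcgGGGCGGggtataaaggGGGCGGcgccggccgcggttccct
upstream of COL18A1 (chr21:45404915-45405164, plus strand, the outer of its starts): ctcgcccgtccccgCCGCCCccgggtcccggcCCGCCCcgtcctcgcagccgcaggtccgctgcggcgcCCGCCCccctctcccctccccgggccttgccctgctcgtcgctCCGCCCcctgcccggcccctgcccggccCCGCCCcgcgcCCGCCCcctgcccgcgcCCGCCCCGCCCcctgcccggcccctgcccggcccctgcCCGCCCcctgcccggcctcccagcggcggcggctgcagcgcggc
upstream of COL9A2 (chr1:40317287-40317536, minus strand): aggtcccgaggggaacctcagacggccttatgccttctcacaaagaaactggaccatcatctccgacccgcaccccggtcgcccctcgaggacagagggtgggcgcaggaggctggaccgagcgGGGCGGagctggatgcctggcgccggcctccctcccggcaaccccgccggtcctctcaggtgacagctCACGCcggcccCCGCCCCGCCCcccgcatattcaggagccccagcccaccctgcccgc
upstream of COL9A1 (chr6:70303085-70303334, minus strand, the outer of its starts): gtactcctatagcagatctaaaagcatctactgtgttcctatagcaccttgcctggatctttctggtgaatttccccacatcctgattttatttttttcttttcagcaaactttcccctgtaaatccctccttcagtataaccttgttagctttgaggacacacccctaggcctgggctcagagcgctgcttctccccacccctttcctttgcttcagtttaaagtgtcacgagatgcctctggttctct

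The stretch between COL4A1 and COL4A2 held 1 CCAAT box and 1 GC box, and those of COL4A5 and COL4A6 held 2 and 3 CCAAT boxes and no GC box. COL18A1 had 9 GC boxes, COL6A2 had 4 and COL5A1 had 2, whereas COL9A1 had none of the 3 motifs. In windows from 250 bases before to 50 bases after each start, a GC box was present in 71.0% of the 31 windows of the 24 collagen genes with over 3 reads in at least 1 library. It was present in 15.4% of the 13 windows of 8 genes that never passed 3 reads, against 45.0% of all 35116 windows in the table. The median ratio of observed to expected CpG was 0.708 and 0.242 in these groups of collagen windows and 0.579 in all windows. A hypoxia response core was found in 43.2% of the 44 collagen windows and in 48.4% of all windows, and a CCAAT box in 31.8% and 34.6%. A match of letters is a description of the sequence and not a binding site.

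The libraries held between 26383920 and 45692298 counted reads. Changes were tested with DESeq2 between pairs of groups over all genes, and a gene was called higher or lower at an adjusted p (Benjamini-Hochberg) under 0.05 where it also changed by 1.5-fold or more. Levels are given as RPKM, the reads of a gene per kilobase of its transcript, scaled to the mapped reads of the library, for both libraries of a group in order. Of 7 epithelial markers KRT8 and KRT18 were at 144 RPKM or higher in each library, whereas CDH1, which encodes E-cadherin, was at 0.11 or lower. The mesenchymal genes VIM, CDH2 and THY1 were high in each library, from 54.05 RPKM for CDH2 to 1527 for VIM, and DCN, a defining gene of fibroblasts, was at 0. Of 6 markers of other cell types 5 were at 0.06 RPKM or lower and CD68 was between 14.3 and 21.8.

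Of the 44 collagen genes, 18 reached a mean of 1 RPKM in at least 1 group, 10 further genes were called in at least 1 comparison, and the other 16 were low or silent. Between 24 and 30 members had over 3 reads in a library. COL1A1 alone supplied 66.1% and 65.0% of the summed collagen RPKM of UT cells, followed by COL12A1 with 10.5% and 12.6% and COL6A1 with 7.08% and 6.83%. The summed collagen RPKM was 590.1 and 519.9 in the UT libraries, 318 and 516 in those of Ni-E, 525 and 547 in those of Ni-W, and 814 and 841 in those of HCl3. Both HCl3 libraries were thus above all others, and Ni-E replicate 1 was below all others. Without COL1A1 the sum was 199.9 and 182 in the UT libraries, 141 and 178 in those of Ni-E, 307 and 302 in those of Ni-W, and 382 and 387 in those of HCl3, so that both washout groups lay above UT and Ni-E once this gene was set aside.

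**Figure D1:**
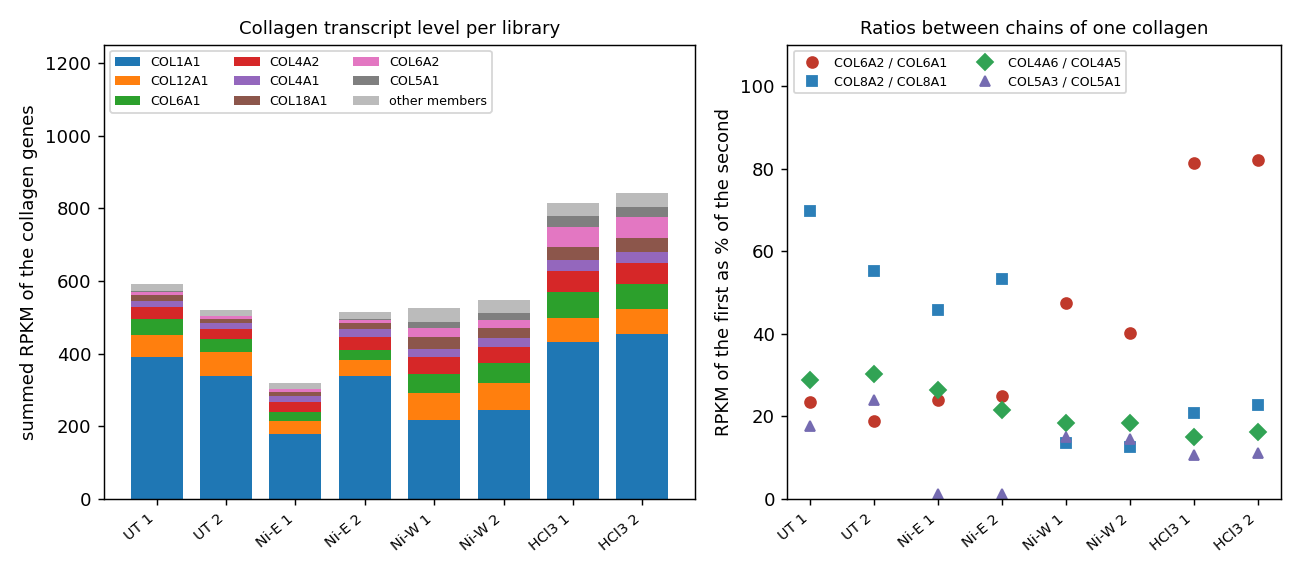
Left, the RPKM (reads per kilobase, scaled to the mapped reads) of the collagen genes stacked for each of the 8 libraries, with the 8 highest genes in colour and all other members in light grey. Right, the RPKM of one chain as a percentage of another chain of the same collagen in each library; COL6A2 rises from 18.9 to 24.9% of COL6A1 in UT and Ni-E to 81.4 and 82.1% in HCl3.

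During nickel exposure 7 of the 25 collagen genes tested were called, 2 higher and 5 lower, by DESeq2. With edgeR 8 were called, and limma on log2(RPKM + 1) or on log2(RPKM + 0.1) called 0, with 8 members at an unadjusted p under 0.05 in each. Against UT, COL4A4 and COL13A1 were higher, and COL1A2, COL5A3, COL6A1, COL6A3 and COL12A1 were lower. Of all 14140 genes tested, 3.84% were called higher and 2.10% lower. The median log2 fold change of the tested members was 0.03, against -0.00 over all genes tested. Differences between replicates were taken over the 22 members with a mean count of at least 50. Their median absolute log2 difference was 0.33 in Ni-E and 0.24 in UT, against 0.11 and 0.14 over 12055 genes with the same minimum. Of these members 18 were higher in replicate 2 of Ni-E, and 7 were higher in replicate 2 of UT. Without Ni-E replicate 1, or without UT replicate 1, 4 members were called.

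After washout the direction was mainly up. Ni-W cells had 14 members higher and 3 lower than UT of 27 tested, where 11.1% of all 15477 genes tested were higher and 4.95% were lower. The median log2 fold change of the tested members was 1.46 (1.36 with COL2A1 and COL4A3 set to the level that 3 reads give in UT), against 0.01 over all genes. The lower genes were COL1A1, COL4A6 and COL6A3. Without Ni-W replicate 1 or Ni-W replicate 2, 11 members were called.

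HCl3 cells had 22 members higher and 1 lower, COL4A6, of 30 tested against UT, where 11.4% of all 15421 genes tested were higher and 3.84% were lower. Once GC and length trends were removed, COL6A3 was lower as well. The median log2 fold change was 1.74 (1.48 with genes at or under 3 reads in UT set to that level), against 0.01 over all genes. Without HCl3 replicate 2, 15 members were called. A gene whose reads are almost all in 1 group passes the filter on low counts only through that group, so that the medians over tested members are descriptions. The comparisons of Ni-E, Ni-W and HCl3 with UT share the UT libraries, and their values are given side by side for each gene.

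Set against Ni-E, Ni-W cells had 17 members higher and 0 lower of 28 tested, where 12.0% of all 15638 genes were higher and 9.04% were lower. At an unadjusted p under 0.05 only COL4A6 was lower, by DESeq2 and by edgeR, which also called 0 members lower. Its adjusted p was 0.0188 by DESeq2, and its log2 fold change of -0.50 was under 1.5-fold. COL4A6 was called lower (-0.71, adjusted p = 0.000399) once GC and length trends were removed. The median log2 fold change was 1.15, against 0.01 over all genes, and without either Ni-W replicate 9 members were called. HCl3 cells had 7 members higher and 0 lower than Ni-W cells of 29 tested, where 3.18% of all 14605 genes were higher and 1.72% were lower. At an unadjusted p under 0.05 DESeq2 gave 3 lower members (COL7A1, COL8A1 and COL12A1) and edgeR gave 5, of which it called 0. By DESeq2 the falls of COL7A1 (-0.25, adjusted p = 0.0233) and COL8A1 (-0.48, adjusted p = 0.00245) were under 1.5-fold. That of COL12A1 (-0.15) had an adjusted p of 0.104. The 7 higher genes were COL1A1, COL1A2, COL5A1, COL6A2, COL6A3, COL11A1 and COL13A1. Without Ni-W replicate 2, HCl3 replicate 1 or HCl3 replicate 2, 4 members were called.

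**Figure D2:**
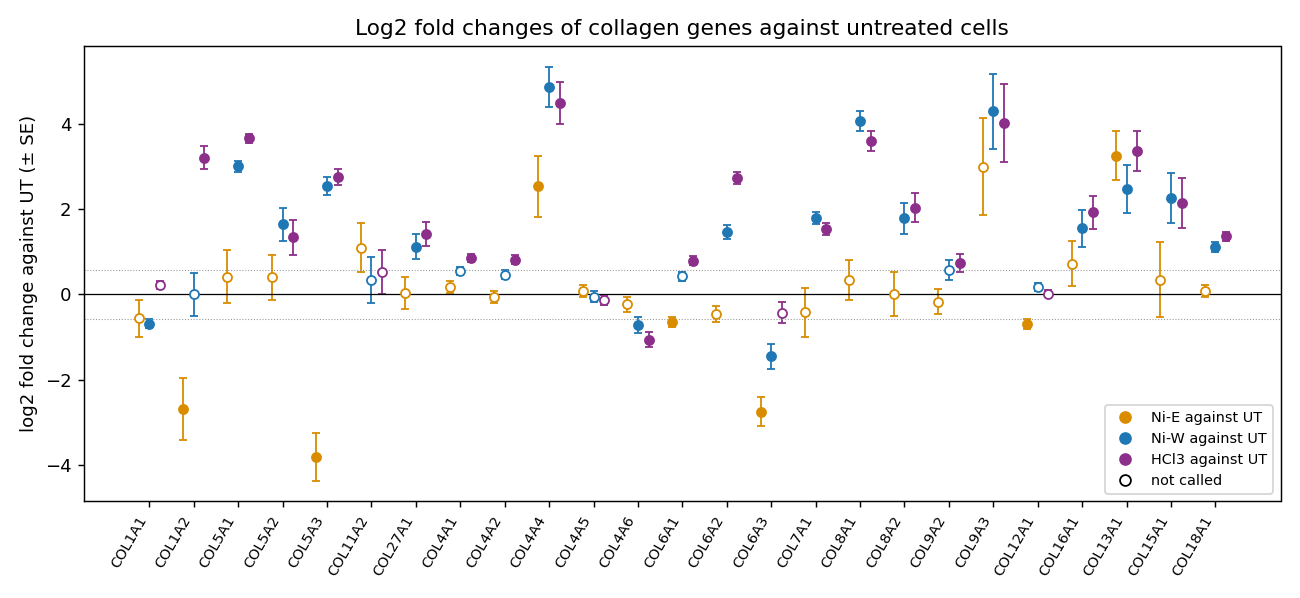
Log2 fold change against UT (y axis, ± SE from DESeq2) of the 25 collagen genes tested in all 3 comparisons with UT and with over 3 reads in at least 1 library of each group, in the order of their structural class. Filled points were called at an adjusted p under 0.05 and at least 1.5-fold (dotted lines), open points were not; most filled points of Ni-W and HCl3 lie above 0, and those of Ni-E lie on both sides.

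Of the 11 fibril-forming collagens, 2 of 7 tested were lower in Ni-E than in UT (2.10% of all genes tested). In Ni-W 4 of 8 were higher (11.1%) and 1 was lower (4.95%), and in HCl3 8 of 10 were higher (11.4%). These 8 include COL2A1, COL3A1 and COL11A1, which had at most 1 read in a UT library. They passed the filter on low counts only through HCl3, so that this share is a description. COL1A1 (chr17:48261457-48279000 in hg19, the build of the deposited files, minus strand) encodes the alpha 1 chain of type I collagen. It was at 390.2 and 338 RPKM in the UT libraries, 178 and 337 in those of Ni-E, 218 and 245 in those of Ni-W, and 431 and 454 in those of HCl3. The Ni-W libraries were both below UT and the HCl3 libraries both above, whereas 1 Ni-E library was close to the lower UT library and the other was the lowest of all. Against UT the log2 fold change was -0.69 ± 0.11 in Ni-W (SE, adjusted p = 9.45e-09) and 0.23 ± 0.10 in HCl3, which was not called (adjusted p = 0.0535). With GC and length trends removed the value in HCl3 changed sign, to -0.12 (adjusted p = 0.0566), and was again not called. In Ni-E it was -0.56 ± 0.44 and not called. HCl3 exceeded Ni-W by 0.92 ± 0.08 (adjusted p = 6.22e-30).

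COL1A2 (chr7:94023873-94060544) encodes the alpha 2 chain, which joins the alpha 1 chain in the usual type I molecule. Its level was a small fraction of that of COL1A1: 0.24 and 0.18 RPKM in the UT libraries, 0.03 and 0.03 in those of Ni-E, 0.25 and 0.18 in those of Ni-W, and 2.05 and 2.01 in those of HCl3. As a percentage of COL1A1 this was 0.0615 and 0.0533% in UT and 0.475 and 0.443% in HCl3, the highest of the 4 groups. Compared with UT, the log2 fold change was 3.21 ± 0.27 in HCl3 (adjusted p = 1.76e-31) and 0.00 ± 0.50 in Ni-W. In Ni-E it was -2.69 ± 0.73 (adjusted p = 0.00452), which rested on 7 reads in each Ni-E library.

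In type V collagen, which takes part in starting fibrils of type I, COL5A1 and COL5A3 rose more after washout than COL5A2. COL5A1 (chr9:137533651-137736688, plus strand), its alpha 1 chain, was at 2.44 and 2.01 RPKM in the UT libraries, 1.76 and 4.42 in those of Ni-E, 17.7 and 19.0 in those of Ni-W, and 29.1 and 29.8 in those of HCl3. Both washout groups were far above the other groups, without overlap. It was 8.03-fold higher than UT in Ni-W (log2 3.01 ± 0.13, adjusted p = 1.65e-122) and 12.7-fold higher in HCl3 (log2 3.67 ± 0.11, adjusted p = 2.55e-233). HCl3 was above Ni-W by 0.67 ± 0.08 (adjusted p = 2.66e-16), and this fell to 0.57, under 1.5-fold, with GC and length trends taken out. The 139 expressed genes in the same 10 Mb stretch of chromosome 9 had a median of 0.27 on the log2 scale in Ni-W and 0.24 in HCl3, and the part of this in the change of COL5A1 was not tested.

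COL5A3, the alpha 3 chain, had the widest range between groups of the chains of type V. It was at 0.43 and 0.48 RPKM in the UT libraries, 0.02 and 0.05 in those of Ni-E, 2.66 and 2.75 in those of Ni-W, and 3.09 and 3.30 in those of HCl3. No group overlapped with UT, with Ni-E below and the washout groups above. The log2 fold changes against UT were -3.81 ± 0.56 for Ni-E (adjusted p = 1.64e-09), 2.54 ± 0.21 in Ni-W (adjusted p = 1.09e-32) and 2.76 ± 0.19 in HCl3 (adjusted p = 4.76e-44). Ni-W stood 6.33 ± 0.41 above Ni-E (adjusted p = 1.34e-51). COL5A2, the alpha 2 chain, was between 0.12 and 0.44 RPKM in each library, with 34 and 33 reads in UT and 158 and 106 in Ni-W. It was higher than UT by 1.65 ± 0.39 in Ni-W (adjusted p = 0.000224) and 1.34 ± 0.41 in HCl3 (adjusted p = 0.00477), and the 15 expressed genes around it on chromosome 2 had medians of 0.56 and 0.44.

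COL27A1, a fibril-forming collagen of cartilage, was at 0.40 and 0.33 RPKM in the UT libraries, 0.39 and 0.38 in those of Ni-E, 0.80 and 0.85 in those of Ni-W, and 1.00 and 1.04 in those of HCl3. UT and Ni-E overlapped and both washout groups were above them. It exceeded UT by a log2 fold change of 1.13 ± 0.30 in Ni-W (adjusted p = 0.00122) and 1.42 ± 0.28 in HCl3 (adjusted p = 4.17e-06). The 3 other called members of this class were near the limit of detection. COL3A1, the chain of type III collagen, had no read in UT or Ni-E, 3 reads in each Ni-W library, and 15 and 13 in HCl3, which was at least 3.71-fold higher than the level of 3 reads per library in UT (adjusted p = 0.00656). COL11A1 had no read in UT or Ni-E, 2 and 0 reads in the Ni-W libraries, and 15 and 21 in the HCl3 libraries, at least 4.75-fold above that level in UT (adjusted p = 0.00222) and 18.4 times the share of reads in Ni-W (95% counting interval 4.73 to 158). COL2A1, the collagen of cartilage, had 1 and 0 reads in UT and 14 and 18 in HCl3, a ratio of 27.2 in share of reads (95% counting interval 4.54 to 1110.0, adjusted p = 0.0249). Such intervals and floors cover counting error only.

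**Figure D3:**
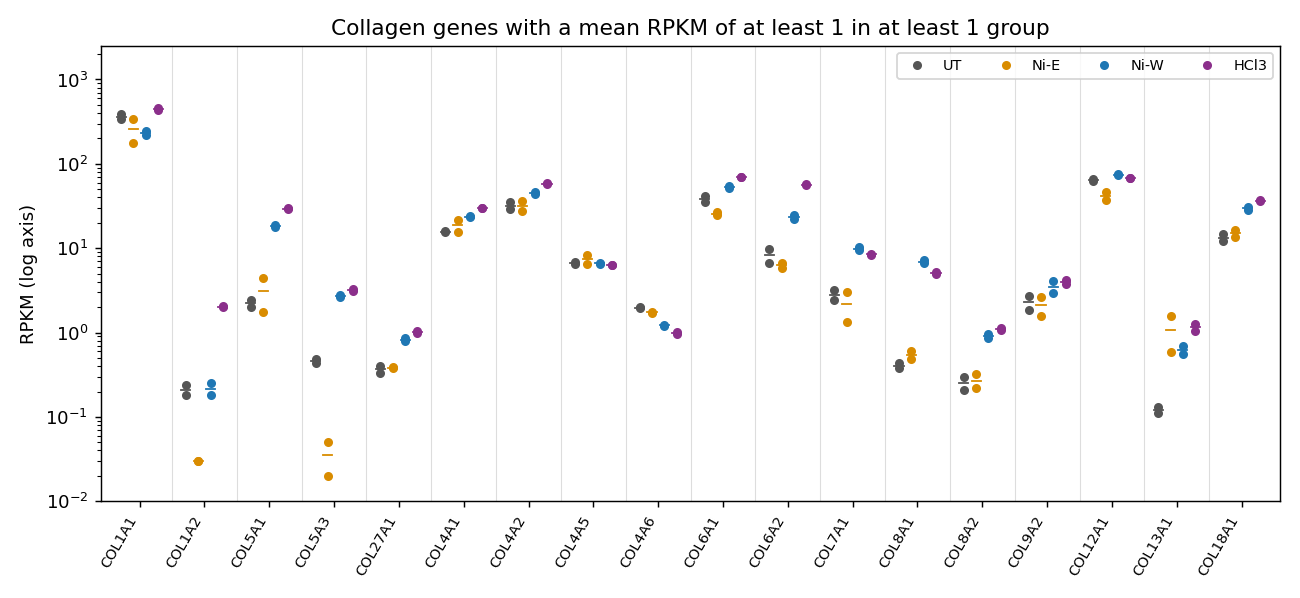
RPKM on a log axis of the 18 collagen genes with a mean of at least 1 RPKM in at least 1 group, ordered by structural class; each point is 1 library, each short line a mean of 2 libraries, and colours mark the groups. COL5A1, COL8A1 and COL6A2 are higher in both washout groups than in UT and Ni-E, and COL1A2 and COL5A3 are lowest in Ni-E.

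Type IV collagen was led by COL4A2 and COL4A1, the pair of chains in most basement membranes, which shared 126 bases of upstream sequence. COL4A1 (chr13:110801310-110959496, minus strand) was at 16.2 and 15.4 RPKM in the UT libraries, 15.6 and 21.7 in those of Ni-E, 23.2 and 24.1 in those of Ni-W, and 29.7 and 29.7 in those of HCl3. COL4A2 (chr13:110959631-111165373, plus strand) was at 35.1 and 28.9 RPKM in the UT libraries, 27.5 and 36.5 in those of Ni-E, 46.7 and 43.96 in those of Ni-W, and 58.2 and 58.5 in those of HCl3. Both genes had the same order of groups, with Ni-E overlapping UT. Against UT the log2 fold change was 0.86 ± 0.09 for COL4A1 (adjusted p = 1.25e-18) and 0.81 ± 0.11 for COL4A2 in HCl3 (adjusted p = 6.28e-13), and both were called. In Ni-W it was 0.55 ± 0.10 and 0.47 ± 0.12, under 1.5-fold with adjusted p = 1.56e-06 and 0.00037. COL4A2 was between 168 and 217% of COL4A1 per length in each library. With GC and length trends removed COL4A2 was 0.46 above UT in HCl3 and no longer called. The 25 expressed genes of this 10 Mb stretch of chromosome 13 had a median of 0.37 on the log2 scale in Ni-W and 0.28 in HCl3, and the part of it in these values was not tested.

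The pair on chromosome X differed in its calls. COL4A5 (chrX:107683074-107940775, plus strand), whose chain is needed in the basement membrane of the kidney, was at 6.80 and 6.58 RPKM in the UT libraries, 6.53 and 8.21 in those of Ni-E, 6.70 and 6.54 in those of Ni-W, and 6.35 and 6.31 in those of HCl3, and it was called in none of the 5 comparisons. COL4A6 (chrX:107398837-107682727, minus strand), its neighbour, was at 1.95 and 1.99 RPKM in the UT libraries, 1.72 and 1.77 in those of Ni-E, 1.23 and 1.21 in those of Ni-W, and 0.95 and 1.02 in those of HCl3. None of the 4 groups overlapped, and UT was highest. The log2 fold change of COL4A6 against UT was -0.72 ± 0.18 in Ni-W (adjusted p = 0.000485) and -1.06 ± 0.18 in HCl3 (adjusted p = 7.62e-08). COL4A6 thus went from 28.7 and 30.2% of COL4A5 in UT to 15.0 and 16.2% in HCl3. The log2 fold change of COL4A5 was -0.05 ± 0.12 in Ni-W and -0.13 ± 0.11 in HCl3.

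COL4A4 and COL4A3, the third pair, were low, and both are best known from the kidney. COL4A4 had 5 and 10 reads in the UT libraries, 45 and 57 in those of Ni-E, 353 and 209 in those of Ni-W, and 193 and 229 in those of HCl3. It was called higher than UT in each of the 3 groups with a history of nickel, by 2.53 ± 0.71 for Ni-E (adjusted p = 0.00632), 4.88 ± 0.47 in Ni-W (adjusted p = 6.36e-23) and 4.49 ± 0.49 in HCl3 (adjusted p = 2.16e-18). Its partner COL4A3 had 1 and 0 reads in UT, none in Ni-E, 16 and 7 in the Ni-W libraries and 11 and 6 in the HCl3 libraries. It was called only in Ni-W against Ni-E, as at least 3.30-fold higher than the level of 3 reads (adjusted p = 0.0139). This call was lost without Ni-E replicate 2 (5.73 on the log2 scale). Without Ni-E replicate 1, Ni-W replicate 1 or Ni-W replicate 2, COL4A3 fell below the filter on low counts and was not tested. LOC654841 is listed on the opposite strand over COL4A3, with 2 to 13 reads, and whether the counting used strand is not given in the sources used here.

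The chains of type VI collagen changed unequally. COL6A1 (chr21:47401663-47424963, plus strand) was at 41.8 and 35.5 RPKM in the UT libraries, 24.5 and 26.8 in those of Ni-E, 51.8 and 54.6 in those of Ni-W, and 69.4 and 69.6 in those of HCl3. COL6A2 (chr21:47518033-47552763, plus strand), its neighbour, was at 9.84 and 6.72 RPKM in the UT libraries, 5.89 and 6.67 in those of Ni-E, 24.6 and 22.0 in those of Ni-W, and 56.5 and 57.1 in those of HCl3. Ni-E was the lowest group for both genes and HCl3 the highest. In Ni-E against UT, COL6A2 was not called (-0.455 ± 0.18, adjusted p = 0.0881). Once GC and length trends were removed it was called lower there (-0.70, adjusted p = 0.000102). Against UT, COL6A2 was 2.76-fold higher in Ni-W (log2 1.46 ± 0.16, adjusted p = 3.28e-18) and 6.64-fold higher in HCl3 (log2 2.73 ± 0.14, adjusted p = 4.33e-81). COL6A1 was lower in Ni-E by a log2 fold change of -0.65 ± 0.12 (adjusted p = 5.62e-06) and higher in HCl3 by 0.79 ± 0.10 (adjusted p = 2.91e-13), while its 0.43 ± 0.11 in Ni-W was under 1.5-fold. With GC and length trends removed COL6A1 was 0.42 above UT in HCl3 and not called. COL6A2 was thus at 18.9 to 24.9% of COL6A1 in UT and Ni-E, at 47.5 and 40.3% in Ni-W, and at 81.4 and 82.1% in HCl3. The 54 expressed genes around these genes, which lie near COL18A1, had medians of 0.03 and 0.04.

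COL6A3, the large chain that completes type VI collagen, was at or below 0.60 RPKM. It had 224 and 172 reads in the UT libraries, 39 and 27 in those of Ni-E, 124 and 60 in those of Ni-W, and 172 and 190 in those of HCl3. Its log2 fold change against UT was -2.75 ± 0.35 for Ni-E (adjusted p = 1.70e-12) and -1.45 ± 0.29 in Ni-W (adjusted p = 8.67e-06), whereas in HCl3 it was -0.43 ± 0.24 and not called. In HCl3 it was -0.62 and called lower (adjusted p = 0.0154) once GC and length trends were removed. In share of COL6A1 it was between 0.336 and 1.69% in each library. COL6A6 never passed 4 reads, and COL6A5 had no read.

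Type VII collagen, the anchoring fibril made mostly by epithelial cells, has 1 gene. COL7A1 (chr3:48601506-48632593, minus strand) was at 3.16 and 2.43 RPKM in the UT libraries, 1.34 and 3.02 in those of Ni-E, 10.3 and 9.50 in those of Ni-W, and 8.54 and 8.34 in those of HCl3. Both washout groups were above the other groups without overlap, and Ni-E replicate 1 was the lowest library. Against UT it was 3.46-fold higher in Ni-W (log2 1.79 ± 0.14, adjusted p = 1.40e-35) and 2.90-fold higher in HCl3 (log2 1.54 ± 0.13, adjusted p = 2.51e-29).

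Type VIII collagen forms a hexagonal network and is known from vessel walls and the cornea. COL8A1 was at 0.43 and 0.38 RPKM in the UT libraries, 0.48 and 0.60 in those of Ni-E, 7.21 and 6.67 in those of Ni-W, and 5.18 and 4.93 in those of HCl3. COL8A2 was at 0.30 and 0.21 RPKM in the UT libraries, 0.22 and 0.32 in those of Ni-E, 0.97 and 0.85 in those of Ni-W, and 1.08 and 1.12 in those of HCl3. Both genes were higher in the washout groups, without overlap. COL8A1 was 16.9-fold higher in Ni-W (log2 4.08 ± 0.23, adjusted p = 3.58e-66) and 12.1-fold higher in HCl3 (log2 3.60 ± 0.24, adjusted p = 3.73e-48), and its HCl3 level was below that of Ni-W by a log2 fold change of -0.48 ± 0.13, under 1.5-fold. COL8A2 was higher by 1.79 ± 0.36 in Ni-W (adjusted p = 7.39e-06) and 2.04 ± 0.33 in HCl3 (adjusted p = 1.25e-08). COL8A2 went from 69.8 and 55.3% of COL8A1 in UT to 13.5 and 12.7% in Ni-W. COL10A1, the third gene of this class and a marker of hypertrophic cartilage, never passed 2 reads.

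Of the 10 fibril-associated collagens, which sit on the surface of fibrils, COL12A1 was by far the highest. COL12A1 (chr6:75794042-75915623, minus strand) was at 62.2 and 65.8 RPKM in the UT libraries, 36.9 and 46.2 in those of Ni-E, 73.9 and 75.2 in those of Ni-W, and 67.5 and 68.3 in those of HCl3. The Ni-E libraries were below all others. The log2 fold change was -0.70 ± 0.12 in Ni-E against UT (adjusted p = 9.78e-07) and 0.86 ± 0.11 in Ni-W against Ni-E (adjusted p = 1.04e-14), while in the washout groups it was 0.18 ± 0.10 and 0.02 ± 0.09 against UT. With GC and length trends removed the fall in Ni-E was -0.47, under 1.5-fold with adjusted p = 3.04e-05, and the rise from Ni-E to Ni-W was 0.48, also under 1.5-fold.

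COL9A2, a chain of the cartilage collagen type IX, was at 2.72 and 1.86 RPKM in the UT libraries, 1.58 and 2.66 in those of Ni-E, 4.03 and 2.97 in those of Ni-W, and 3.76 and 4.24 in those of HCl3. UT and Ni-E overlapped. It was called in HCl3 against UT (0.74 ± 0.21, adjusted p = 0.00289), and not with GC and length trends removed (0.40, adjusted p = 0.0708). COL9A3 had 4 and 1 reads in the UT libraries, 16 and 27 in those of Ni-E, 87 and 37 in those of Ni-W, and 34 and 63 in those of HCl3, and was higher than UT by 4.31 ± 0.88 in Ni-W (adjusted p = 1.27e-05) and 4.02 ± 0.91 in HCl3 (adjusted p = 9.26e-05). TCFL5 overlaps COL9A3 on the opposite strand with 376 to 842 reads, and without strand the reads of the 2 genes cannot be told apart. COL9A1, the remaining chain of type IX, had no read in any library. COL16A1 had 55 and 18 reads in the UT libraries, 53 and 75 in those of Ni-E, 153 and 100 in those of Ni-W, and 150 and 177 in those of HCl3, and was higher than UT by 1.55 ± 0.43 in Ni-W (adjusted p = 0.00158) and 1.94 ± 0.39 in HCl3 (adjusted p = 6.74e-06).

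Of the membrane-spanning collagens COL13A1, found at sites of cell adhesion, was raised in each group with a history of nickel. It was at 0.11 and 0.13 RPKM in the UT libraries, 1.56 and 0.59 in those of Ni-E, 0.55 and 0.70 in those of Ni-W, and 1.03 and 1.27 in those of HCl3. All 6 libraries with a history of nickel were above both UT libraries, and the 2 Ni-E libraries were far apart. The log2 fold change was 3.26 ± 0.58 for Ni-E (adjusted p = 1.26e-06), 2.48 ± 0.57 in Ni-W (adjusted p = 0.000115) and 3.37 ± 0.47 in HCl3 (adjusted p = 3.57e-11). COL17A1, the collagen of hemidesmosomes in stratified epithelia, had 4 and 5 reads in Ni-E and at most 1 read in each other library.

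The multiplexins, collagens of the basement membrane zone that carry sugar chains, were both higher after washout. COL18A1 (chr21:46875424-46933634, plus strand), whose end can be cut off as endostatin, was at 14.6 and 12.1 RPKM in the UT libraries, 13.5 and 16.6 in those of Ni-E, 31.1 and 28.1 in those of Ni-W, and 36.0 and 37.4 in those of HCl3. UT and Ni-E overlapped and the washout groups were above them. It was 2.17-fold higher than UT in Ni-W (log2 1.12 ± 0.12, adjusted p = 1.71e-18) and 2.58-fold higher in HCl3 (log2 1.37 ± 0.11, adjusted p = 3.73e-33). COL15A1 had 15 and 8 reads in the UT libraries, 17 and 15 in those of Ni-E, 87 and 49 in those of Ni-W, and 58 and 65 in those of HCl3, and was higher by 2.26 ± 0.59 in Ni-W (adjusted p = 0.000783) and 2.15 ± 0.58 in HCl3 (adjusted p = 0.00135).

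The other 16 members were not called in any comparison and were under 1 RPKM in each group. COL11A2 was detected with 19 to 103 reads. COL24A1, COL6A6, COL17A1 and COL14A1 had a highest count of 8 or fewer reads. COL10A1, COL19A1, COL20A1, COL21A1, COL23A1, COL26A1 and COL28A1 never passed 3 reads, and COL6A5, COL9A1, COL22A1 and COL25A1 had no read in any library. A level under that of 3 reads in a library was not detectable at this depth.

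Some calls against UT were lost when 1 library was left out, with the same direction. In Ni-E this held for COL1A2 without each of the 4 libraries in turn (-2.44 to -2.89), for COL4A4 without UT replicate 1 (1.91), Ni-E replicate 1 (2.67) or Ni-E replicate 2 (2.34), for COL6A1 without UT replicate 1 (-0.53), and for COL12A1 (-0.55) and COL13A1 (2.38) without Ni-E replicate 1. In Ni-W the calls of COL5A2 (1.64 and 1.64), COL27A1 (1.18 and 1.08), COL4A6 (-0.73 and -0.70), COL16A1 (1.55 and 1.58) and COL15A1 (2.13 and 2.38) were lost without Ni-W replicate 1 and without Ni-W replicate 2, those of COL8A2 (1.71) and COL9A3 (3.97) without Ni-W replicate 1 and that of COL13A1 (2.29) without Ni-W replicate 2. The call of COL16A1 was also lost without UT replicate 2 (1.13), and that of COL1A1 without UT replicate 1 (-0.58, just under 1.5-fold). In HCl3 the calls of COL5A2 (1.37 and 1.30), COL15A1 (2.21 and 2.11) and COL9A2 (0.83 and 0.66) were lost without HCl3 replicate 1 and without HCl3 replicate 2, and those of COL9A3 (3.58) and COL16A1 (1.86) without HCl3 replicate 2. COL9A2 was also lost without UT replicate 2 (0.50), COL5A2 (1.10) and COL3A1 without UT replicate 1, and COL2A1 without either UT library. COL2A1, COL3A1 and COL11A1 fell below the filter on low counts without HCl3 replicate 1 and without HCl3 replicate 2. Their calls were thus lost there without a test. In Ni-W against Ni-E the calls of COL27A1 (1.13 and 1.03), COL7A1 (2.14 and 2.26), COL5A2 (1.22 and 1.23), COL6A3 (1.01 and 1.49), COL15A1 (1.76 and 2.02) and COL9A2 (0.50 and 0.93) were lost without Ni-W replicate 1 and without Ni-W replicate 2. That of COL1A2 was lost without Ni-W replicate 1 (2.39) and that of COL5A1 without Ni-W replicate 2 (2.53). Leaving out Ni-E replicate 1 ended the calls of COL9A2 (0.42) and COL5A2 (0.98), and leaving out Ni-E replicate 2 those of COL6A3 (1.01), COL15A1 (1.79) and COL4A3 (5.73). COL4A3 was not tested without Ni-E replicate 1, Ni-W replicate 1 or Ni-W replicate 2. The values are log2 fold changes, and an arm left with 1 library was taken to vary like the other group.

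The 53 genes listed as acting on collagen chains were also followed. In Ni-E 3 of 48 tested were higher than UT and 2 were lower; in Ni-W 13 of 51 were higher and 2 lower; and in HCl3 15 of 51 were higher and 2 lower. Over all genes tested 3.84, 11.1 and 11.4% were higher and 2.10, 4.95 and 3.84% lower in these comparisons. Their median log2 fold change was 0.07, 0.33 and 0.41, against -0.00, 0.01 and 0.01 over all genes tested. Among the 15 genes of hydroxylation and glycosylation, 1 was higher in Ni-W and 2 in HCl3. P4HA1, a catalytic subunit of the prolyl hydroxylase of collagen, was at 51.7 and 51.1 RPKM in the UT libraries, 60.3 and 68.4 in those of Ni-E, 95.2 and 83.7 in those of Ni-W, and 107 and 103 in those of HCl3. It was higher than UT by 0.77 ± 0.11 in Ni-W (adjusted p = 1.56e-11) and 0.98 ± 0.09 in HCl3 (adjusted p = 3.02e-26). P4HA2, its paralogue, was called higher in HCl3 (0.92 ± 0.09, adjusted p = 1.09e-22), with 0.49 ± 0.11 in Ni-W under 1.5-fold. PLOD2, which hydroxylates lysines at sites of cross-links, was at 285 and 328 RPKM in the UT libraries, 229 and 245 in those of Ni-E, 400.1 and 417 in those of Ni-W, and 420.1 and 390.1 in those of HCl3, and was not called against UT in any group, though Ni-W was above Ni-E by 0.79 ± 0.08 (adjusted p = 1.68e-19).

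Of the 10 genes of folding and export only CREB3L1, a factor of secretion that acts on collagen genes, was called against UT, by -0.92 ± 0.12 for Ni-E (adjusted p = 4.54e-13). Of 8 genes of propeptide processing, 7 were tested in Ni-E, where 1 was higher (3.84% of all genes tested) and 1 lower (2.10%). All 8 were tested after washout. In Ni-W 2 were higher (11.1%) and 1 lower (4.95%), and in HCl3 2 were higher (11.4%) and 1 lower (3.84%). ADAMTS2, called higher in Ni-W, had 1 read in each UT library and 23 and 13 in those of Ni-W. TLL1, a protease that cuts the C propeptide, had 278 and 218 reads in the UT libraries, 297 and 337 in those of Ni-E, 4 and 3 in those of Ni-W, and 0 and 1 in those of HCl3, and its log2 fold change in Ni-W was -6.46 ± 0.61 (adjusted p = 4.94e-24). ADAMTS3, which cuts the N propeptide, had log2 fold changes of -1.90 ± 0.45 for Ni-E (adjusted p = 0.000663), 1.36 ± 0.26 in Ni-W (adjusted p = 3.10e-06) and 1.00 ± 0.27 in HCl3 (adjusted p = 0.00132). PCOLCE2, an enhancer of the C proteinase, was higher in Ni-E by 1.15 ± 0.28 (adjusted p = 0.000934).

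Of the 5 cross-linking enzymes, all tested, 3 were higher than UT in Ni-W (11.1% of all genes) and 4 in HCl3 (11.4%), against 1 in Ni-E (3.84%). LOXL2 was under 1.5-fold in Ni-W (0.46), and LOXL3 was not called in any group (-0.02 in Ni-W). LOX, the lysyl oxidase, was at 7.92 and 9.29 RPKM in the UT libraries, 8.26 and 8.52 in those of Ni-E, 21.5 and 20.8 in those of Ni-W, and 38.4 and 34.6 in those of HCl3. It was higher than UT by 1.28 ± 0.12 in Ni-W (adjusted p = 1.63e-24) and 2.04 ± 0.11 in HCl3 (adjusted p = 4.48e-72), and it was not called in Ni-E (-0.09 ± 0.14). LOXL1 was at 1.82 and 1.72 RPKM in the UT libraries, 5.52 and 5.52 in those of Ni-E, 6.06 and 5.58 in those of Ni-W, and 11.2 and 12.9 in those of HCl3, above UT in each other group. Its log2 fold change was 1.59 ± 0.21 (adjusted p = 2.52e-11), 1.69 ± 0.20 (adjusted p = 4.41e-15) and 2.71 ± 0.17 (adjusted p = 4.04e-54). Of 7 collagen receptors, all tested after washout, 3 were higher in Ni-W (11.1% of all genes) and 3 in HCl3 (11.4%). Only DDR2, a receptor tyrosine kinase for fibrillar collagen, was lower, in both Ni-W (4.95% of all genes) and HCl3 (3.84%). Its log2 fold change was -0.96 ± 0.19 in Ni-W (adjusted p = 4.61e-06) and -0.60 ± 0.17 in HCl3 (adjusted p = 0.003).

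Of 8 genes of collagen breakdown, 4 of 6 tested were higher than UT in Ni-W (11.1% of all genes) and 4 of 6 in HCl3 (11.4%), against 1 of 5 in Ni-E (3.84%), and MMP8 and MMP13 had no read. MMP1, the interstitial collagenase, was at 0.37 and 0.45 RPKM in the UT libraries, 1.64 and 0.26 in those of Ni-E, 8.59 and 10.0 in those of Ni-W, and 8.21 and 7.06 in those of HCl3. The washout groups were well above the others, and the 2 Ni-E libraries lay on either side of UT. MMP1 was higher than UT by 4.48 ± 0.27 in Ni-W (adjusted p = 4.55e-60) and 4.16 ± 0.27 in HCl3 (adjusted p = 2.43e-51).

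**Figure D4:**
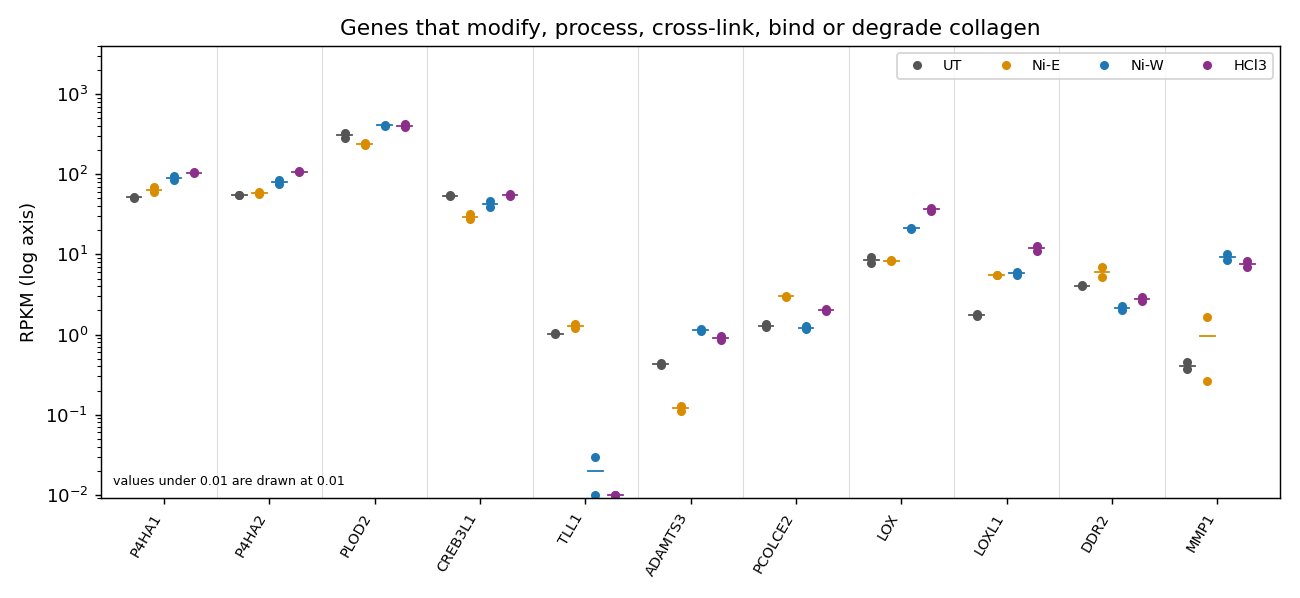
RPKM on a log axis of 11 genes that modify, process, cross-link, bind or degrade collagen; each point is 1 library, each short line a mean of 2 libraries, and colours mark the groups. LOX and MMP1 are higher in both washout groups than in UT and Ni-E, LOXL1 is above UT in the other 3 groups, and TLL1 is near 0 after washout.

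Some markers moved with the groups. Of the 7 epithelial markers, 2 of 6 tested were higher than UT in Ni-W (11.1% of all genes tested) and 3 of 6 in HCl3 (11.4%). Their summed RPKM was 338 to 369 in UT, 372 to 435 under exposure, 466 to 495 in Ni-W and 523 to 558 in HCl3. Nearly all of this sum was KRT8 and KRT18. KRT19 was at 0.78 RPKM or lower and NKX2-1 at 0.29 or lower, each with at most 1 read in a UT library. Of the 7 mesenchymal markers 5 were tested in each comparison with UT. In Ni-E 1 was higher (3.84% of all genes tested) and 2 were lower (2.10%), and in Ni-W 1 was lower (4.95%). The summed RPKM of the mesenchymal markers was 1671 to 1768 in UT, 1048 to 1194 under exposure, 1064 to 1243 in Ni-W and 1793 to 1807 in HCl3. Most of this sum was VIM, at 1417 and 1518 RPKM in UT, which was lower in Ni-E (log2 fold change -0.74) and Ni-W (-0.73), whereas CDH2 (0.10) and PDGFRB (0.11) were not called in Ni-W. In Ni-E PDGFRB was lower (-0.78) and LUM higher (2.88). PDGFRB was at 10.6 to 27.9 RPKM, THY1 at 137 to 186 and LUM at 0.91 or lower, whereas PDGFRA and DCN were at 0.02 or lower in each library. The summed RPKM of the 6 markers of other cell types was between 14.4 and 21.8, nearly all of it CD68. The part of these markers in the collagen values was not tested. In bulk RNA a change in the share of cells that express a gene and a change in RNA per cell cannot be told apart.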

How the data were processed

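The authors sequenced 8 BEAS-2B libraries prepared with a TruSeq RNA kit, aligned the reads to hg19 with STAR 2.4, removed reads with several hits and obtained counts per RefSeq gene and RPKM values with BioWardrobe, and these were deposited per library. The deposited counts are whole reads per gene, and the deposited RPKM values are the authors' own, rounded to 2 decimals. Whether strand was used in counting is not given in the sources used here.

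Groups were taken from the labels and replicate 2 from the label that marks a repeat library. The study's methods call the 2 libraries of a group biological replicates, and p-values measure only the spread between them. The counts of each pair of groups were fitted with DESeq2 1.42.0 in R 4.3.3 using only the 4 libraries of the pair. Size factors came from the median of ratios, the Wald test was two-sided, low counts were filtered independently of the groups, and p was adjusted over all genes by Benjamini-Hochberg. With 2 against 2 libraries an exact permutation test of 1 gene cannot go below 0.333. A floor of 3 reads per library was used for groups without reads. Genes of a 10 Mb stretch count as expressed from 50 mean normalized reads. Scripts were tested on simulated data. Same-suffix libraries share only a suffix (2 pairs per comparison).

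The members and the gene lists were chosen with earlier results of these data known. Members with a mean RPKM of at least 1 in at least 1 group are given in every library, other called members with reads and log2 fold change, and the rest by name. Of the 53 pathway genes, those named are P4HA1, P4HA2, PLOD2, LOX and, per comparison with UT, the 2 largest rises and falls among called genes that reach 50 mean normalized reads. MIA2 was followed as CTAGE5. Alternatives were edgeR 4.0.16 (quasi-likelihood), TMM, a minimum mean count of 10, all 8 libraries in one fit, limma 3.58.1 with the deposited RPKM on a log2 scale after adding 1 or 0.1, other fold thresholds, the replicate suffix as a block, removal of GC and length trends (98.3% of genes above that minimum had a GC value, taken from GENCODE transcripts by symbol), and leaving out each library. Motifs were searched in RefSeq windows of 250 bases before and 50 after a start, which 12 members did not have in the table.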

Additional observations from a re-analysis of the deposited data

Results flagged for a closer look

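The 2 washout populations have the same label for their treatment, and 7 collagen genes differed between them in a direct test, each higher in HCl3 than in Ni-W. The log2 fold changes (DESeq2) were 0.92 for COL1A1, 3.21 for COL1A2, 0.67 for COL5A1, 1.27 for COL6A2, 1.03 for COL6A3, 0.90 for COL13A1 and 4.25 for COL11A1. The reads of COL11A1 were 2 and 0 in Ni-W against 15 and 21 in HCl3, so that its value is uncertain. COL11A1 was not called without Ni-W replicate 2 (3.45) or HCl3 replicate 1 (4.5). Without Ni-W replicate 1 or HCl3 replicate 2 it fell below the filter on low counts and was not tested. COL13A1 was not called when any 1 of the 4 libraries was left out (0.72 to 1.08), and COL6A3 was not called without Ni-W replicate 2 (0.82), HCl3 replicate 1 (1.08) or HCl3 replicate 2 (0.99).

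Lastly, 5 genes, of which COL1A2 and COL6A3 are also among those above, were lower in Ni-E than in UT and higher in Ni-W than in Ni-E, both by a test. The log2 fold change of Ni-W against Ni-E was 2.67 for COL1A2, 6.33 for COL5A3, 1.06 for COL6A1, 0.86 for COL12A1 and 1.27 for COL6A3. Both comparisons share the Ni-E libraries, so a low value there gives both signs. COL6A3 was not called in Ni-W against Ni-E with GC and length trends removed (0.96, adjusted p = 0.0991), nor without Ni-E replicate 2 (1.01), Ni-W replicate 1 (1.01) or Ni-W replicate 2 (1.49). COL1A2 was not called there without Ni-W replicate 1 (2.39).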

How the results depend on the processing

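No called collagen gene changed direction under any alternative in which it was tested. Of the 71 calls of collagen genes in the 5 comparisons, edgeR kept 70, TMM size factors 71, one fit of all 8 libraries 67, removal of GC and length trends 64, limma on log2(RPKM + 0.1) 57 and limma on log2(RPKM + 1), which shrinks low genes, 35. The 7 calls lost to GC and length were those of COL12A1 (Ni-E against UT, also Ni-W against Ni-E), COL4A2, COL6A1 and COL9A2 (HCl3 against UT), COL5A1 (HCl3 against Ni-W) and COL6A3 (Ni-W against Ni-E). The same correction added 4 calls: COL6A2 lower in Ni-E against UT (-0.70), COL6A3 lower in HCl3 against UT (-0.62), and COL4A6 lower (-0.71) and COL9A3 higher (1.51) in Ni-W against Ni-E.

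Counts of called collagen genes moved as follows. With limma on log2(RPKM + 1) there were 0 in Ni-E against UT (7 by DESeq2), 10 in Ni-W (17), 12 in HCl3 (23), 9 in Ni-W against Ni-E (17) and 4 in HCl3 against Ni-W (7). With limma on log2(RPKM + 0.1) there were 0 in Ni-E and 4 in HCl3 against Ni-W. The latter also had 4 with all 8 libraries in one fit, 4 at 2-fold and 13 with no fold threshold. Leaving out 1 library gave 4 to 7 in Ni-E against UT, 11 to 19 in Ni-W, 15 to 21 in HCl3, 9 to 16 in Ni-W against Ni-E and 4 to 5 in HCl3 against Ni-W. Calls of the 53 genes acting on collagen went from 5 in Ni-E to 0 with either limma setting, 3 at 2-fold, 12 with no fold threshold and 2 to 3 without 1 library, from 15 in Ni-W to 27 with no fold threshold and 9 to 14 without 1 library, and from 17 in HCl3 to 9 at 2-fold and 12 to 17 without 1 library.

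Libraries share only a suffix, and same-suffix deviations had r between -0.274 and 0.475. With the replicate suffix as a block 59 of the 71 calls remained and HCl3 against Ni-W had 4 members. The 12 lost calls included COL1A2 and COL4A4 in Ni-E against UT, and COL2A1, COL3A1 and COL5A2 in HCl3 against UT. The others were COL4A3, COL5A2, COL6A3 and COL9A2 in Ni-W against Ni-E, and COL6A3, COL11A1 and COL13A1 in HCl3 against Ni-W. With GC and length trends removed as well as the block, 52 of the 71 calls remained. HCl3 against Ni-W then had 4 members, and the genes acting on collagen had 2 calls in Ni-E. The crossed pairing, chosen after seeing the data, gave 8 members in Ni-E and 21 in HCl3 against UT, 15 in Ni-W against Ni-E and 5 in HCl3 against Ni-W. The cause of these shifts was not tested.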
